A study of Mus musculus with 12 samples.

Results

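The small leucine-rich proteoglycan genes described here are Podn (podocan), Lum (lumican), Dcn (decorin), Bgn (biglycan), Fmod (fibromodulin) and Prelp (proline and arginine rich end leucine rich repeat protein). They were found in the count table by matching its Ensembl gene IDs to these 6 symbols, and all 6 members, of 31078 genes in the table, had enough reads to be tested. RNA was sequenced from lungs dissected at embryonic day 12.5 on a C57BL/6 background, from embryos whose parents carried an Intu knockout allele. Intu belongs to the CPLANE group of proteins, which are needed to build the primary cilium, the organelle through which Hedgehog signals are read. Per the labels, the 4 groups of 3 libraries each were Intu knockout left lung, Intu knockout right lung, wild-type left lung and wild-type right lung. The labels name no treatment, do not say which part of Intu the allele removes, and do not say whether embryos were pooled. The questions were how knockout differs from wild type, and how left lung differs from right lung in each genotype.

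Small leucine-rich proteoglycans are secreted proteins with a curved core of leucine-rich repeats that mesenchymal cells place in the extracellular matrix. Most of them bind fibrillar collagen and set how its fibrils assemble and how wide they grow, and several also bind growth factors of the TGF-beta family. Decorin and biglycan are close relatives that carry chondroitin or dermatan sulphate chains, whereas lumican and fibromodulin carry keratan sulphate and compete for a site on collagen type I. Prelp is a related protein with a basic start that binds heparin and heparan sulphate and is known from cartilage and basement membranes. Podocan belongs to a more distant class of the family.

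The promoter sequences of the members that differed most between the genotypes or between the sides are shown first, with that of Fmod, the next family gene along from Prelp, for comparison. Each is the 250 bases before the RefSeq start on GRCm38.p6, 5′ to 3′ on the gene's own strand, and the capitals mark CG dinucleotides. Prelp (chr1:133921402-133921651, minus strand) and Fmod (chr1:134037004-134037253, plus strand) hold 5 and 2 of them, and Podn (chr4:108031955-108032204, minus strand, the outer of its 2 RefSeq starts) holds 32, against a median of 6 in all 32851 promoter windows. The window of the other Podn start, not printed, holds 7, and which start is used in these lungs was not tested.
Prelp: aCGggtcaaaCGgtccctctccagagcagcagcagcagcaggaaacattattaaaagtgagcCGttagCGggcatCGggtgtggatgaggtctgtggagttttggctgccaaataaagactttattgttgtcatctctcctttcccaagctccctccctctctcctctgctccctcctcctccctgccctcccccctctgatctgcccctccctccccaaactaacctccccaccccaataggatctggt
Fmod: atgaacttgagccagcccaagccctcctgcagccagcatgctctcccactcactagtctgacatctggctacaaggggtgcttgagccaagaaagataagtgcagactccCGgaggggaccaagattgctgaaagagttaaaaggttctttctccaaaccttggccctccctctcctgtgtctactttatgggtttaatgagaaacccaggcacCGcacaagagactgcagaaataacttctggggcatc
Podn: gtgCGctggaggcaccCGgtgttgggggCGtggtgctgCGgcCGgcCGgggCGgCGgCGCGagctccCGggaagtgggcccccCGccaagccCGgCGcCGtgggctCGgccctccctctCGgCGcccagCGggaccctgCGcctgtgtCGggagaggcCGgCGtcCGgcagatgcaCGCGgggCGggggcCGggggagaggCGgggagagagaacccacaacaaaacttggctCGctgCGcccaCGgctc
RefSeq windows were matched for 4 of the 6 members (5 windows, with Bgn and a second start of Podn). These were searched on both strands for 2 motifs that do not overlap each other: the GLI motif of Hedgehog effectors, GACCACCCA, which 0.225% of all windows hold, and the TATA box core TATAAA (12.4%). Neither was in any of the 5 windows, which says only that these letters are not in these stretches.

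Depth was 10290103 to 10753386 counts per library over the part of the genome in the table, which is chromosomes 1 to 7, 10, X and the start of 8. Levels are normalised to CPM, the usual depth-scaled unit, against each library's summed counts of the tested genes times its scaling factor. Intu itself had 26.2 to 27.5 CPM in knockout left lungs against 30.5 to 32.5 CPM in wild-type left lungs. Such a gap, with knockout lower, was held by 8.26% of tested genes in left lungs. In right lungs the genotypes overlapped. Over both sides Intu had 26.2 to 31.4 CPM in the 6 knockout libraries and 28.2 to 34.0 CPM in the 6 wild-type libraries, and its level therefore did not check the labels. Gli1, a direct Hedgehog target, had 151 to 185 CPM in knockout libraries against 345 to 394 CPM in wild-type libraries and did separate them. The lung mesenchyme genes Tbx5 (362 to 490 CPM), Wnt2 (225 to 264 CPM) and Tcf21 (123 to 195 CPM) were present in every library. Knockout pair number 2, the left and the right library that carry that number, stood apart from the other knockout libraries in several of these genes, and values of these genes without it are given beside theirs. In whole lungs, a change in the number of cells of a type and a change in RNA per cell cannot be told apart.

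**Figure D1:**
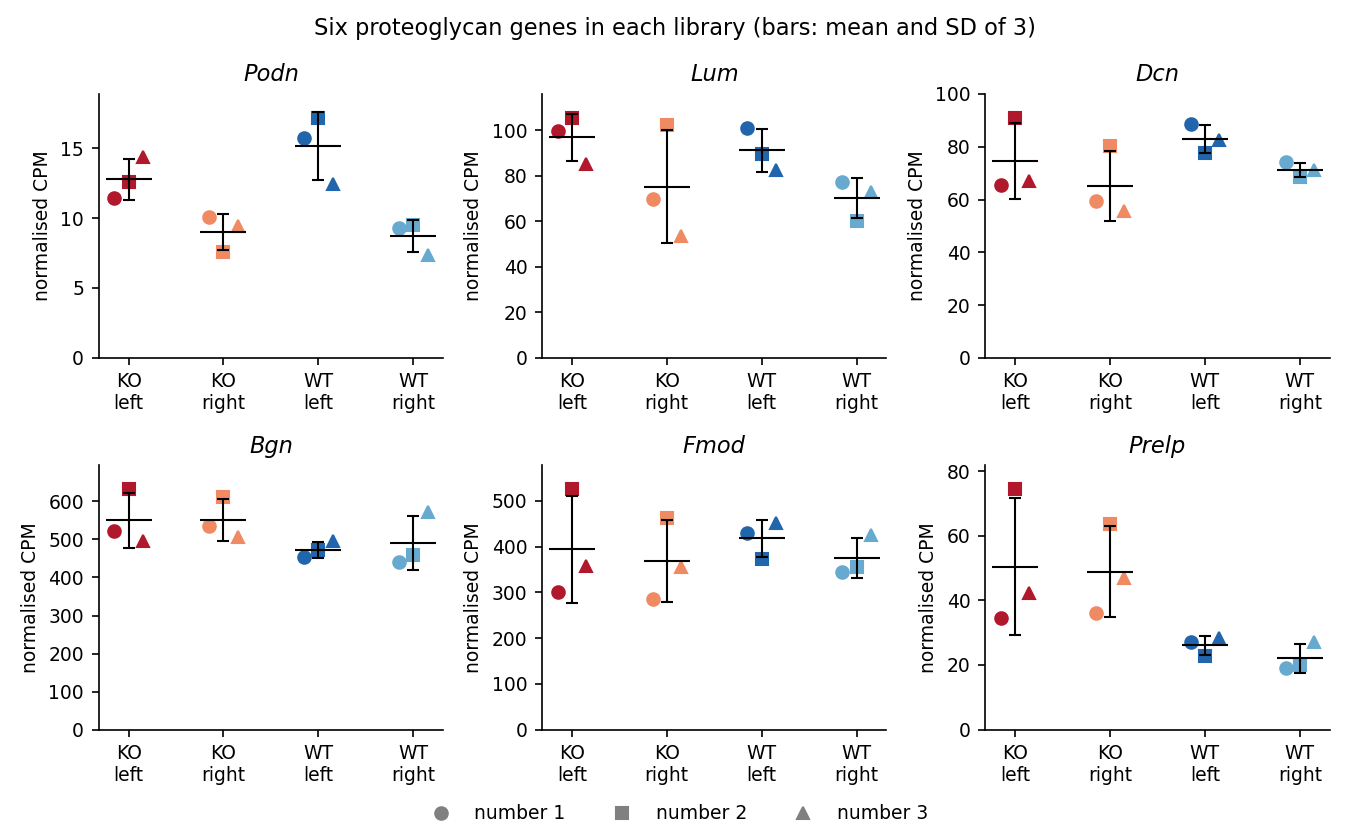
Level of each of the 6 genes in CPM (y axis, linear from 0) in every library, by group (x axis), with the marker shape giving the library's number and a bar at the group mean ± SD (n = 3). Prelp lies above the wild-type libraries in all 6 knockout libraries (34.4 to 74.4 against 19.0 to 28.4 CPM), and Podn lies higher in left than in right lungs of both genotypes.

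Compared per kilobase of exon, the 6 genes spanned a wide range of levels. Fmod averaged 118 CPM per kb over the 12 libraries (range 86.4 to 159) and Bgn 84.7 (72.1 to 104), and their ranges overlapped. Lum followed at 34.0 CPM per kb (21.9 to 43.1), below Bgn in every library. Dcn at 12.6 CPM per kb (9.55 to 15.6) and Prelp at 10.2 (5.26 to 20.6) overlapped each other and lay below Lum. Podn was lowest at 2.67 CPM per kb (1.73 to 4.02), under every Prelp value. Of the other family genes, 6 of the 12 listed were in the table: Tsku (tsukushi), at 31.3 CPM per kb (25.3 to 35.7), overlapped Lum, while Optc (opticin, 0.870), Epyc (epiphycan, 0.642), Podnl1 (0.229), Kera (keratocan, 0.0913) and Nyx (nyctalopin, 0.0602) were low. Kera and Nyx had too few reads to be tested.

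**Figure D2:**
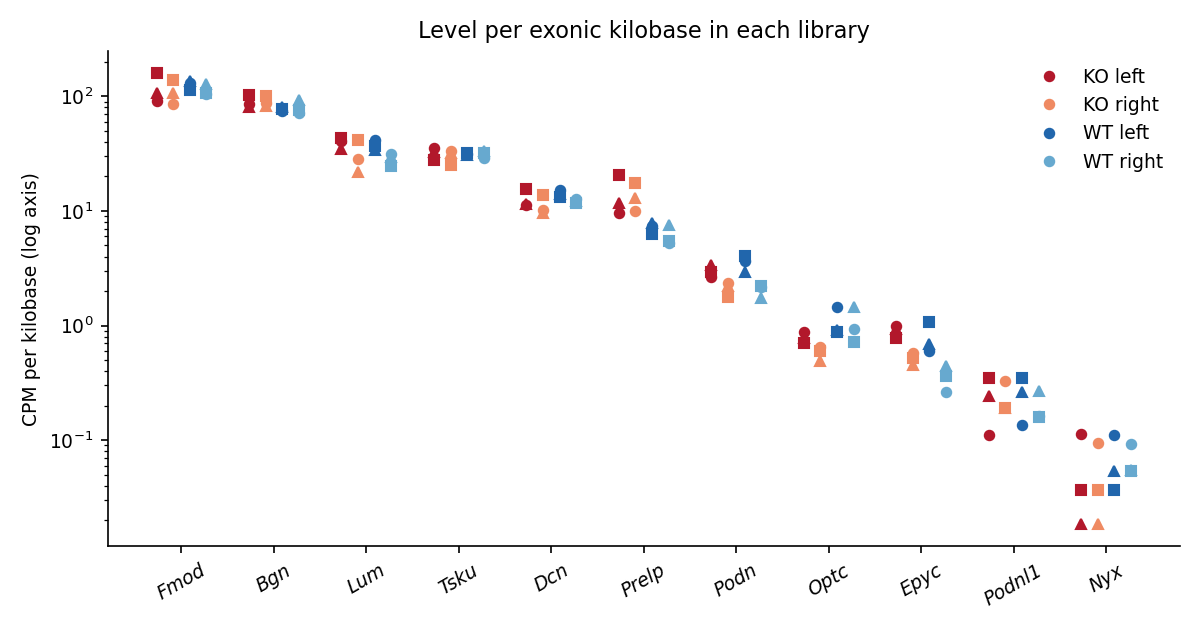
Level of the 6 members and of 5 other family genes in CPM per kb of exon (y axis, log), by gene (x axis), each point 1 library coloured by group (KO is knockout, WT wild type), with circles, squares and triangles for numbers 1, 2 and 3. Fmod and Bgn are at the top, Podn is the lowest member, and Optc, Epyc, Podnl1 and Nyx lie below it; Kera, at 0 in some libraries, is not drawn.

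Between the genotypes, Prelp was the one member that passed the test, in right lungs, and it was higher in knockout. Prelp (ENSMUSG00000041577, chromosome 1, 133910304 to 133921414, minus strand, GRCm38) had 34.4, 74.4 and 42.3 CPM in knockout left lungs (numbers 1, 2 and 3) and 36.0, 63.8 and 46.9 CPM in knockout right lungs. It had 27.0, 22.9 and 28.4 CPM in wild-type left lungs and 19.0, 20.0 and 27.2 CPM in wild-type right lungs. These rest on 352 to 776 reads in knockout libraries and 199 to 304 reads in wild-type libraries. An antisense gene, Gm15851, covers 9.68% of the Prelp exon bases and was itself given at most 1 read in any library. As the use of strand is not stated, reads of this stretch cannot be told apart. Every knockout library was above every wild-type library, with knockout number 2 the highest on each side. Within a side such a gap, with knockout higher, was held by 7.02% of tested genes in left lungs and 8.47% in right lungs. In right lungs Prelp rose by 1.15 on the log2 scale (SE 0.26), which is 2.22-fold, and passed the threshold (adjusted p = 0.0474, edgeR's quasi-likelihood test with Benjamini-Hochberg adjustment over 9519 genes). In left lungs the difference was 0.95 (SE 0.26, 1.93-fold) and did not pass (adjusted p = 0.111). Without the left library of knockout number 2 it was 0.56 (adjusted p = 0.362). When the counts of both sides were added up for each number, giving 3 knockout and 3 wild-type samples, it was 1.04 (SE 0.22, 2.06-fold) with an adjusted p of 0.0705. The difference between the sides' knockout effects on Prelp was -0.20 (SE 0.37, adjusted p = 1.00).

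The calls on Prelp rested on few libraries. In right lungs the call was lost when any 1 of 5 of the 6 libraries was left out (knockout 2 or 3, or any wild-type library; adjusted p 0.0597 to 0.197), and the log2 difference was 0.91 without both libraries of knockout number 2 (adjusted p = 0.0144). In the summed comparison Prelp differed by 0.73 without knockout number 2 and then passed (adjusted p = 0.0374). Over all 13 alternatives the difference ran from 0.73 to 1.24 and passed in 6, with adjusted p from 0.00402 to 0.276.

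Among the tested genes, 1.51% were called in right lungs (0.336% as higher), 1.18% in left lungs (0.305% as higher, 0.872% as lower) and 1.38% in the summed comparison (0.343% as higher). Of the 6 members, 1 was called in right lungs by edgeR and none in left lungs or in the summed counts, where Prelp was the 1 member with an unadjusted p under 0.05. DESeq2 called none in left lungs and 1 in the summed counts. In the summed comparison 3 of the 6 had positive differences, with a median of 0.02 on the log2 scale, against 0.00 over all genes tested. Prelp was also the one member whose 6 knockout libraries all lay above the 6 wild-type libraries, a pattern held by 1.38% of all genes tested.

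**Figure D3:**
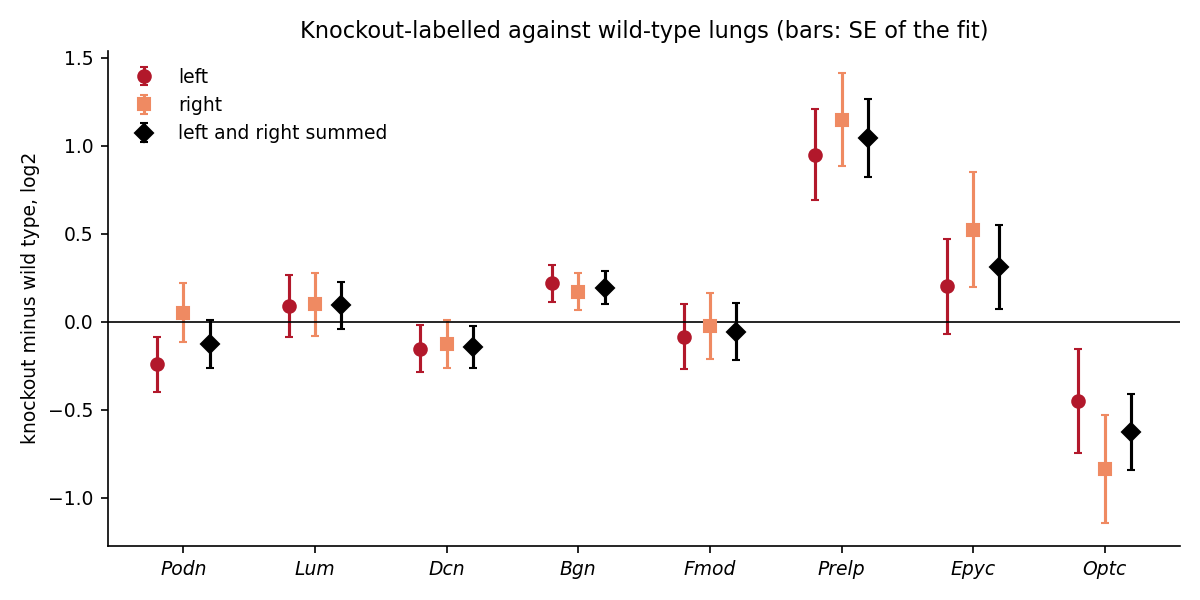
Log2 difference, knockout minus wild type (y axis), for the members, Epyc and Optc (x axis) in left lungs, in right lungs and in the summed counts, with bars of 1 SE on each side. Prelp lies near 1 in all 3 comparisons, Optc lies below 0, and the other 5 members lie within 0.25 of 0.

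None of the other 5 members passed the test between the genotypes. Bgn (ENSMUSG00000031375, chromosome X, 73483602 to 73495933) had 523, 632 and 496 CPM in knockout left lungs and 536, 613 and 507 CPM in knockout right lungs. It had 453, 471 and 496 CPM in wild-type left lungs and 440, 460 and 572 CPM in wild-type right lungs. Knockout left lungs did not overlap wild-type left lungs, by a margin under 1 CPM, and right lungs overlapped. In left lungs 7.02% of tested genes had such a gap with knockout higher. The summed difference of Bgn was 0.19 (SE 0.09, adjusted p = 0.412). Without both libraries of knockout number 2, the Bgn difference was 0.11 in left lungs and 0.089 in right lungs, against 0.22 and 0.17 with them. Dcn (ENSMUSG00000019929, chromosome 10, 97479609 to 97518143) had 65.4, 91.1 and 67.1 CPM in knockout left lungs and 59.3, 80.2 and 55.7 CPM in knockout right lungs. It had 88.5, 77.7 and 82.7 CPM in wild-type left lungs and 74.0, 68.4 and 71.1 CPM in wild-type right lungs. Knockout numbers 1 and 3 lay below all wild-type libraries of their side and number 2 above them. The summed difference of Dcn was -0.14 (SE 0.12, adjusted p = 0.672), and without knockout number 2 it was -0.32 and passed the threshold (adjusted p = 0.0454).

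Fmod (ENSMUSG00000041559, chromosome 1, 134037254 to 134048277, plus strand) had 301, 526 and 357 CPM in knockout left lungs and 286, 464 and 357 CPM in knockout right lungs. It had 431, 374 and 451 CPM in wild-type left lungs and 344, 355 and 426 CPM in wild-type right lungs. Knockout number 2 was again the highest library on each side, and the groups overlapped (summed difference -0.06, SE 0.16, adjusted p = 0.924). Without both libraries of that number the Fmod difference was -0.35 in left lungs (adjusted p = 0.239) and -0.22 in right lungs (adjusted p = 0.526). Lum (ENSMUSG00000036446, chromosome 10, 97565128 to 97572703) averaged 96.9 ± 10.4 CPM in knockout left lungs and 75.2 ± 24.8 CPM in knockout right lungs, against 91.1 ± 9.33 CPM in wild-type left lungs and 70.2 ± 8.89 CPM in wild-type right lungs (SD, n = 3 each). Its summed difference was 0.09 (SE 0.13, adjusted p = 0.821). Podn, whose libraries are given with the sides, differed by -0.13 (SE 0.14, adjusted p = 0.748). Signs of the Fmod and Lum differences turned in some fits with a library left out.

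Knockout pair number 2 was high in Prelp, Fmod, Dcn and Bgn on both sides. The 6 members summed to 1441 CPM in its left library and 1330 CPM in its right library, against 997 to 1062 CPM in the other 4 knockout libraries and 964 to 1177 CPM in wild type. The same pair was high in glycolysis genes chosen after their values were seen (Pdk1, Ldha, Aldoa and P4ha1, summed 4078 and 3592 CPM, against 2212 to 2724 in the other knockout libraries and 1736 to 2256 in wild type) and in the endothelial marker list (1323 and 1260 CPM, against 987 to 1106 in the other knockout libraries and 1025 to 1113 in wild type). The part of either in the members' levels was not tested.

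Prelp and Fmod lie side by side on chromosome 1 with Optc (133897199 to 133907999, with gaps of 2.3 kb and 115.8 kb along the group). The number of Fmod reads for each Prelp read, a ratio chosen after the values were seen and free of library scaling, was 8.76, 7.07 and 8.44 in knockout left lungs and 7.92, 7.27 and 7.61 in knockout right lungs. It was 16.0, 16.4 and 15.9 in wild-type left lungs and 18.1, 17.8 and 15.7 in wild-type right lungs. The genotypes did not overlap, and knockout number 2, high in both genes, had the lowest ratio on each side but lay close to the other knockout libraries. On the log2 scale the ratio was lower by 1.00 in knockout left lungs and by 1.18 in knockout right lungs than in wild type. This is a description with no test: it uses the same Prelp reads whose levels already separated the genotypes. As shown by their promoters, Fmod and Prelp are read in opposite directions. Optc, the third gene of the group and known from the eye, had 2.25, 1.82 and 2.02 CPM in knockout left lungs and 1.66, 1.54 and 1.25 CPM in knockout right lungs. It had 3.75, 2.27 and 2.34 CPM in wild-type left lungs and 2.39, 1.87 and 3.73 CPM in wild-type right lungs. Optc rests on 13 to 23 reads in knockout libraries and 20 to 39 in wild-type libraries. Its groups did not overlap within a side, by a narrow margin in left lungs, as was so with knockout lower for 8.26% of tested genes in left lungs and 9.71% in right lungs. Its summed difference of -0.63 (SE 0.22) did not pass (adjusted p = 0.251).

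**Figure D4:**
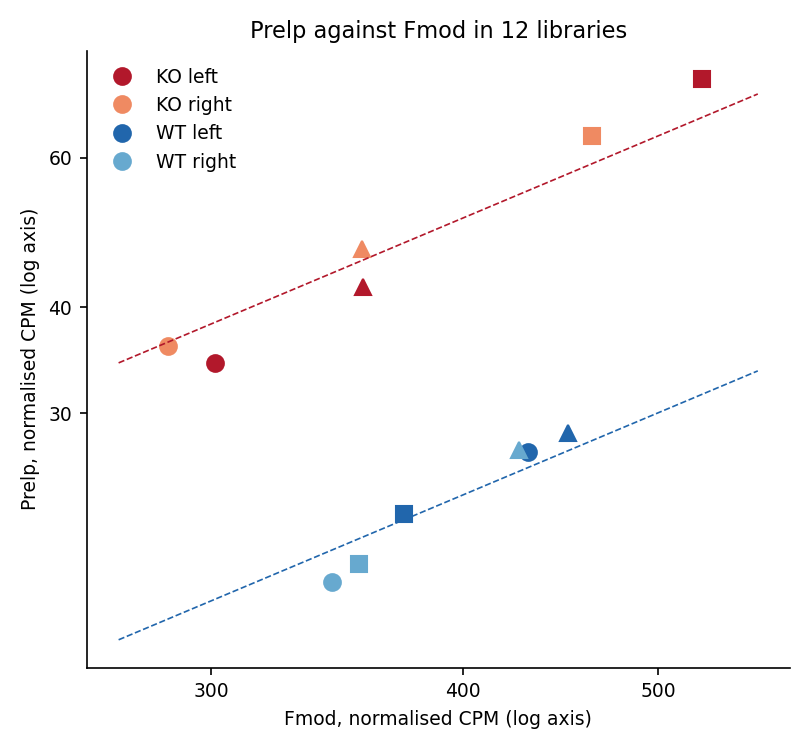
Prelp (y axis) against Fmod (x axis) in CPM on log axes, 1 point per library (circles, squares and triangles for numbers 1, 2 and 3), with a dashed line at each genotype's mean ratio of Fmod to Prelp reads (7.85 in knockout, 16.6 in wild type). The knockout points lie along the upper line, number 2 at its right end, and the wild-type points lie along the lower line.

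Between the sides, mean levels of Podn, Lum and Dcn were higher in left than in right lungs of each genotype. Dcn was not called within either genotype, and the calls on Podn and Lum depended on the fit. Podn (ENSMUSG00000028600, chromosome 4, 108014791 to 108096445, minus strand) had 11.4, 12.6 and 14.3 CPM in knockout left lungs against 10.1, 7.58 and 9.45 CPM in knockout right lungs. In wild type it had 15.8, 17.2 and 12.4 CPM in left lungs against 9.27, 9.52 and 7.37 CPM in right lungs. The counts behind these were 79 to 149 reads in knockout libraries and 77 to 182 reads in wild-type libraries. Left and right did not overlap in either genotype, as was so with left higher for 3.97% of tested genes in knockout and 4.32% in wild type. Treating the 12 libraries as separate samples, edgeR with its filter on low counts called no member between the sides. It called 0% of genes in knockout and 0.0105% in wild type. An unadjusted p under 0.05 was found for 358 of 9519 tested genes in knockout and 249 of 9519 in wild type. Podn was among them in each genotype. DESeq2 called 4 genes in knockout and 11 in wild type, of which 1 in wild type was a member. Without the filter, edgeR called 1 member in knockout and 2 in wild type. The difference of Podn in the filtered edgeR fit was 0.50 in knockout (SE 0.16, adjusted p = 1.00) and 0.79 in wild type (SE 0.16, adjusted p = 0.243). The left and right libraries that share a number deviated together in each genotype, and with these pairs as blocks the difference of Podn was 0.50 in knockout (SE 0.13, adjusted p = 0.106) and 0.79 in wild type (SE 0.12, 1.73-fold), where it passed (adjusted p = 0.000634, and 0.00528 to 0.0362 with 1 wild-type pair left out). In knockout it passed without pair 1 (0.66, adjusted p = 0.0484).

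Lum had 99.8, 106 and 85.3 CPM in knockout left lungs against 69.6, 102 and 53.6 CPM in knockout right lungs. In wild type it had 101, 89.7 and 82.6 CPM in left lungs against 77.4, 60.3 and 73.0 CPM in right lungs. The sides did not overlap in wild type and overlapped in knockout, where the right library of pair number 2 was high. In wild type 4.32% of tested genes had such a gap with left higher. With pairs as blocks Lum rose on the left by 0.39 in knockout (SE 0.09, adjusted p = 0.0331) and by 0.38 in wild type (SE 0.09, adjusted p = 0.0346). Each of these 2 calls was lost when either of 2 pairs of that genotype was left out (knockout 1 or 3, adjusted p 0.184 and 0.388; wild type 1 or 2, adjusted p 0.233 and 0.573). For Dcn the blocked difference was 0.20 in knockout (SE 0.06, adjusted p = 0.240) and 0.22 in wild type (SE 0.06, adjusted p = 0.102), and left and right did not overlap in wild type.

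In these blocked fits 0.452% of genes were called in knockout (0.263% as higher on the left) and 0.662% in wild type (0.273% as higher on the left). Of the 6 members, 1 was called in knockout and 2 in wild type, all higher on the left. None of the members' side differences was called as differing between knockout and wild type, where 0.021% of genes were: the gap was -0.29 for Podn (SE 0.18), -0.23 for Prelp (SE 0.13) and within 0.08 of 0 for the others (adjusted p = 0.998 for each, pairs as blocks).

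The mean of the side differences of both genotypes, with pairs as blocks, was added after the data were seen. By that comparison, in which 1.33% of all genes were called and 0.662% as higher on the left, 3 of the 6 members were called, all as higher on the left: Podn by 0.65 (SE 0.09, 1.57-fold, adjusted p = 9.64e-05), Lum by 0.39 (SE 0.06, 1.31-fold, adjusted p = 0.000578) and Dcn by 0.21 (SE 0.04, 1.16-fold, adjusted p = 0.00736). These calls held with any 1 of the 6 pairs left out, but Lum and Dcn did not pass under DESeq2 (adjusted p 0.0613 and 0.0798). Without the pairs, when 0.084% of genes were called, none of the 6 passed (adjusted p = 0.0735 for Podn, 0.851 for Lum and 0.940 for Dcn). The median over the 6 members was 0.17, against 0.00 over all genes tested.

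Pair by pair, the log2 difference of Podn was 0.18, 0.71 and 0.59 in knockout pairs 1, 2 and 3 and 0.75, 0.84 and 0.74 in wild-type pairs. For Lum it was 0.52, 0.04 and 0.67 in knockout and 0.38, 0.57 and 0.18 in wild type. For Dcn it was 0.14, 0.18 and 0.27 in knockout and 0.26, 0.18 and 0.22 in wild type. All 3 genes, and Fmod, were higher on the left in 6 of 6 pairs, as were 3.46% of all genes tested. Fmod differed by 0.12 (SE 0.04, adjusted p = 0.135), Prelp by 0.13 (SE 0.06, adjusted p = 0.439, higher on the left in 4 of 6 pairs) and Bgn by -0.03 (SE 0.04, adjusted p = 0.860, 3 of 6 pairs).

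**Figure D5:**
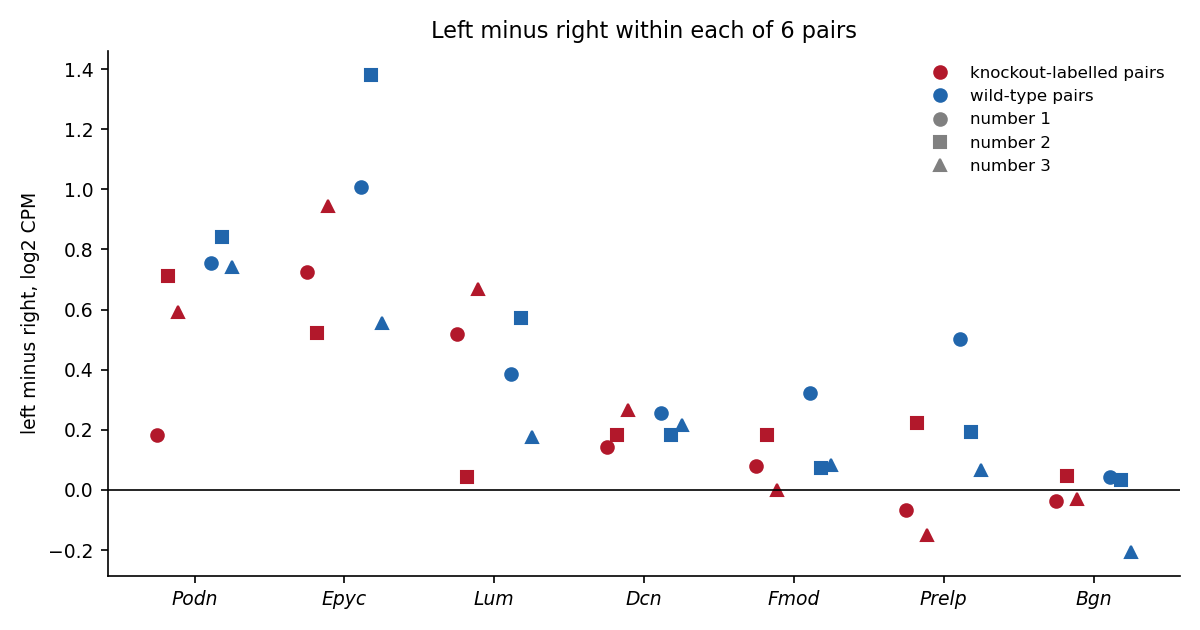
Left minus right difference in log2 CPM (y axis) for each numbered pair (points) of knockout and wild type, by gene (x axis). Podn, Lum, Dcn, Fmod and Epyc are above 0 in all 6 pairs, Fmod barely in knockout pair 3 (0.0012), while Bgn and Prelp fall on both sides of 0.

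Lum and Dcn are neighbours on chromosome 10, in a row of 4 family genes with Kera (97606879 to 97613692) and Epyc (97644068 to 97682454) that spans 202.8 kb. Epyc, a low gene known from growth cartilage, had 2.54, 2.01 and 2.41 CPM in knockout left lungs against 1.46, 1.34 and 1.16 CPM in knockout right lungs. In wild type it had 1.54, 2.74 and 1.78 CPM in left lungs against 0.669, 0.933 and 1.15 CPM in right lungs. These are 7 to 29 reads a library, and the opposite-strand gene Gm10754, with at most 1 read in any library, covers 40.6% of its exon bases. Left and right did not overlap in either genotype. With left higher, this held for 3.97% of tested genes in knockout and 4.32% in wild type. Epyc was higher on the left by 0.97 in the mean of both (SE 0.22, adjusted p = 0.0198), a call lost without any 1 of 4 of the 6 pairs (knockout 1 or 3, wild type 1 or 2; adjusted p 0.0579 to 0.177). Tsku, on another chromosome, differed by 0.03 (SE 0.04, adjusted p = 0.832).

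Some marker genes were called between the sides as well, in 1 gene of each of 5 lists. By the same blocked mean, and chosen after the values were seen, the mesenchymal factor Prrx1 was lower on the left (log2 difference -0.29, adjusted p = 0.0021), as were the mesothelial gene Lrrn4 (-0.25, adjusted p = 0.00824), the airway epithelial factor Sox2 (-0.25, adjusted p = 0.0184) and the proteoglycan Spock2 (-0.29, adjusted p = 0.0103). The endothelial factor Sox18 was higher (0.20, adjusted p = 0.0140). Each was the 1 gene called in its list. Positive side differences were held by 4 of 8 mesenchymal genes, with a median of 0.01, and by 5 of 7 endothelial genes, with a median of 0.02. They were held by 6 of 14 genes of the other proteoglycan list (median -0.0059), 0 of 3 mesothelial (median -0.04) and 0 of 2 epithelial genes (median -0.16). Of 5 smooth muscle genes (median -0.09) and 5 heart genes (median -0.16), none had a positive side difference and none was called. All 8 macrophage genes had positive side differences, with a median of 0.14, and none of them was called. No gene of the fibrillar collagen list (7 tested), the chain synthesis list (21), the receptor list (10) or the cartilage and tendon list (8) was called between the sides. The part of cell makeup in the side differences was not tested.

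The partners of the family were compared between the genotypes in the summed counts, with gene lists chosen with earlier results of these data known. Of the fibrillar collagens that these proteins bind, none of 7 tested passed, and all 7 had positive differences with a median of 0.08: Col3a1 averaged 3309 CPM in knockout and 2908 CPM in wild type (0.19, adjusted p = 0.179), and Col1a2 2911 CPM in knockout and 2503 CPM in wild type (0.22, adjusted p = 0.228). None of 21 tested genes that build the sugar chains passed (median -0.0022), Dse, which makes dermatan sulphate, having 169 CPM in knockout and 152 CPM in wild type (0.15, adjusted p = 0.269). None of 10 receptors passed (median 0.04), with Met at 50.5 CPM in knockout and 60.4 CPM in wild type (-0.26, adjusted p = 0.132) and the endocytic receptor Lrp1 at 743 CPM in knockout and 670 CPM in wild type (0.15, adjusted p = 0.161).

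Of 3 TGF-beta genes (the ligands Tgfb1 and Tgfb2, and Ltbp4, a binding protein of the latent ligand), 1 passed. Tgfb1 fell by 0.27 (SE 0.05), to 84.5 CPM in knockout against 102 CPM in wild type (adjusted p = 0.0479). Of 6 proteases and cofactors known to act on these proteins or on collagen, 1 was called as higher and 1 as lower. Htra1, a secreted serine protease that cleaves several matrix proteins, rose by 1.18 (SE 0.20), at 17.8 CPM in knockout against 7.84 CPM in wild type (adjusted p = 0.0285). Mmp9, a gelatinase, fell by 1.42 (SE 0.24), at 0.709 CPM in knockout against 1.91 CPM in wild type (adjusted p = 0.0317). Of 6 elastic fibre genes, 1 was called, as higher. Fbln2, a fibulin, rose by 0.46 (SE 0.09), at 127 CPM in knockout against 92.2 CPM in wild type (adjusted p = 0.0406). Of 14 other proteoglycan and link protein genes none passed (median -0.02). The basement membrane proteoglycan Hspg2 had 1007 CPM in knockout and 866 CPM in wild type (0.22, adjusted p = 0.0705). Sdc3 had 238 CPM in knockout and 268 CPM in wild type (-0.17, adjusted p = 0.155). Of 13 alternatives, the call on Tgfb1 was lost in 9 (adjusted p up to 0.198), that on Mmp9 in 7 (up to 0.106), that on Htra1 in 5 (up to 0.141) and that on Fbln2 in 5 (up to 0.141).

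Markers of several cell types in the tissue moved with genotype beside Prelp. The cartilage and tendon list summed to 304 to 340 CPM in knockout libraries against 235 to 257 CPM in wild type, with Matn4 (91.6 CPM in knockout, 41.0 in wild type) and Col9a2 (71.4 in knockout, 51.4 in wild type) higher and Tnmd (0.563 in knockout, 4.97 in wild type) lower among 8 tested. Of these 8, 4 had positive differences in the summed counts, with a median of 0.02. The cartilage genes Acan (0.662 CPM in knockout, 1.12 in wild type) and Matn1 (0.0323 in knockout, 0.0478 in wild type) were near 0. Of 8 mesenchymal genes, 1 was called as higher in the summed counts (Prrx1, 63.5 CPM in knockout, 35.2 in wild type), and 6 had positive differences, with a median of 0.11. The mesenchymal list summed to 8117 to 9251 CPM in knockout against 7654 to 8129 CPM in wild type. Col1a2 and Col3a1, neither of them called, made up 67.2% to 73.3% of that sum, and the other 6 genes summed to 2407 to 2695 CPM in knockout against 2410 to 2544 CPM in wild type. The smooth muscle list summed to 284 to 336 CPM in knockout against 641 to 778 CPM in wild type. None of its 5 genes had a positive difference in the summed counts (median -0.92), and 4 were called as lower (Actg2, Synpo2, Lmod1 and Myl9). In right lungs all 5 were called as lower. The macrophage list summed to 160 to 208 CPM in knockout against 227 to 260 CPM in wild type. None of its 8 genes had a positive difference in the summed counts (median -0.55), and 2 were called as lower (Laptm5 and Mrc1). Of 5 heart markers 1 was called as lower (Actc1), while 3 had positive differences, and the median over the 5 was 0.16 in the summed counts. None of 3 mesothelial, 2 epithelial or 7 endothelial markers passed in the summed counts, while 1 of the 3 mesothelial markers was called as lower in right lungs. Of 13 alternatives, the call was lost in 5 for Mrc1 (adjusted p up to 0.104), 4 for Col9a2 (up to 0.0891), 3 for Laptm5 (up to 0.0647), 2 for Actc1 (up to 0.0577) and 1 for Prrx1 (up to 0.0604). The part of these cell types in the Prelp difference was not tested.

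The genes whose levels followed each member most closely over the 12 libraries, all of which share the same groups and pairs, were taken as those with the highest Pearson r of log2 CPM among tested genes of at least 5 CPM. For Prelp they were Nfix (0.976), Tbx3os1 (0.960) and Rbpjl (0.958). For Fmod they were the collagen VI genes Col6a2 (0.965) and Col6a1 (0.959) and 2900026A02Rik (0.952). For Bgn they were Muc1 (0.933), Zscan18 (0.922) and Faah (0.912), and for Dcn Grb14 (0.928), Inpp5d (0.921) and Cldn3 (0.917). For Podn they were Commd8 (0.905), Pithd1 (0.881) and H2afz (0.876), and for Lum Ptger3 (0.845), Car13 (0.818) and Cavin3 (0.794). These values describe the libraries and carry no test.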

How the data were processed

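RNA of 12 libraries was extracted from dissected embryonic lungs, per the labels' protocols. The table deposited by the authors holds whole-number read counts, not normalised. FastQC, HISAT2, featureCounts and the build GRCm38 are named in the submitters' processing notes. Tool versions, and whether counting used strand, were not given in the sources used here. In the count table the last row is cut short, and this 1 incomplete row was left out. Symbols were matched for 30915 of 31078 genes (99.5%). Chromosomes outside the table were not analysed here.

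Genes were filtered with filterByExpr (minimum count 10, minimum total 15), which kept 9519 (10203 for summed counts), and scaled with TMM factors of 0.992 to 1.01. The quasi-likelihood test of edgeR 4.0.16 (R 4.3.3) was run in 1 model of 4 groups with 8 residual degrees of freedom, or on counts summed over sides with 4. Benjamini-Hochberg adjustment ran over all tested genes, with a threshold of 0.05. DESeq2 1.42.0, limma-voom (limma 3.58.1), RLE factors, no filter, leaving out each library or pair, and replicate blocks were the alternatives. The procedure was also run on simulated counts. Each library was drawn independently there, so a tie between left and right libraries of a number was not part of it. Correlations used log2 CPM with a prior count of 2.

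Left and right libraries of one number and genotype deviated together from their group means (r 0.253 to 0.486 in all 6 pairs, against -0.393 to -0.00284 for other numbers). Deviations from a group mean cancel out within the group, so positive values for one number push those for other numbers down, and the ranges are not independent. Numbers were taken to pair the sides within a genotype, which the data hint at and the labels do not state. Across genotypes the same number gave -0.121 to -0.0416. Blocked fits, with 4 residual degrees of freedom, are given where they change a call. Since separate embryos are not stated for the libraries of a group, the p-values reflect the spread between these samples alone, and it may be technical.

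The members and lists were chosen with earlier results of these data known. Genes named were the members, the other family genes, of each list up to 4 called genes by smallest p, or 2 genes by p in a list without calls, and the 3 genes most like each member; some other genes were named after their values were seen, as stated beside them. One of the marker lists is not reported here.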

Additional observations from a re-analysis of the deposited data

How the results depend on the processing

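Over 103 log2 differences of single genes and 1196 fits under alternatives, 1050 kept their direction and side of the threshold, 75 no longer passed, 36 newly passed and 35 changed sign. Among the members called between genotypes, left lungs had 2 with no filter on low counts (0 otherwise, 0 to 1 with 1 library left out), right lungs 0 under limma-voom (0 to 1 with 1 left out) and the summed counts 1 with no filter, under DESeq2, with 12 libraries as independent samples and under limma-voom with pairs as a random effect (0 to 2 with 1 number left out). Between sides, knockout had 1 with no filter and 1 with the pairs as a replicate block. Wild type had 2 with no filter, 1 under DESeq2, 1 under limma-voom with random pairs and 2 with the pairs as a replicate block. With those blocks, leaving out 1 pair gave 0 to 1 members in knockout and 1 to 2 in wild type. For the mean of both genotypes the count of 3 became 4 with no filter (Fmod then passed, adjusted p = 0.0399), 0 without the replicate block, 1 under DESeq2 and 1 under limma-voom with random pairs. With those 2 tools Lum and Dcn did not pass (adjusted p 0.0613 and 0.0798 under DESeq2, 0.117 and 0.286 with random pairs). With number as a replicate block across genotypes, Prelp still did not pass in the summed counts (adjusted p = 0.150), and apart from the side calls above the blocks changed no member's call.

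Over all genes, the counts called ran over the alternatives from 45 to 510 in left lungs (112), 68 to 595 in right lungs (144), 29 to 543 in the summed counts (141), 0 to 43 between knockout sides (0), 1 to 63 between wild-type sides (1), 0 to 6 for the interaction (0) and 8 to 224 for the mean of both genotypes with blocks (127). The highest counts between genotypes came with no filter within a side and with 12 independent libraries in the sums. With 1 pair left out, the blocked counts were 12 to 30 in knockout (43) and 25 to 41 in wild type (63).

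The 35 sign changes were in differences that lay between -0.20 and 0.10, and the cause was not tested. Lum in right lungs went to -0.19 without both libraries of knockout number 2. With 1 library or pair left out, the range between genotypes was -0.35 to 0.082 for Fmod in left lungs, -0.22 to 0.13 in right lungs and -0.29 to 0.10 summed; -0.056 to 0.16 for Podn in right lungs; -0.19 to 0.30 for Lum in right lungs and -0.066 to 0.23 summed; and -0.17 to 0.10 for Lrrn4 summed. Between knockout sides it was -0.35 to 0.28 for Prelp (-0.11 to 0.10 with blocks), -0.17 to 0.30 for Fmod and -0.12 to 0.080 for Bgn (-0.034 to 0.011 with blocks). Between wild-type sides it was -0.20 to 0.38 for Optc (-0.26 to 0.49 with blocks) and -0.12 to 0.072 for Bgn (-0.082 to 0.040 with blocks). It was -0.044 to 0.017 for Bgn in the blocked mean and -0.60 to 0.042 for Prelp in the interaction. Kera and Nyx, at under 0.6 CPM, had too little depth to be tested.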
